A study of Mus musculus with 14 samples.

Results

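The comparison set sorted cells of the mouse lymph node labelled as lymphatic endothelium of the medullary sinus against those labelled as subcapsular. The marker genes given below bore these labels out only in part, so medullary and subcapsular stand for the labels throughout. Its members were all 4 samples of the series that came from fluorescence-activated cell sorting (FACS), of 14 samples in all. They were subcapsular sinus replicates 6 and 7 and lymphatic medullary sinus replicates 6 and 7, each of 1200 cells from C57Bl/6 mice, with no treatment named and no ages given. Per the labels, many node groups, from popliteal to mesenteric and cervical, were digested with Liberase and DNase I. The suspension was stained with a lineage antibody cocktail (against CD3e, CD11b, Ly-6C, Ly-6G, B220 and erythroid cells), with antibodies to CD73 and podoplanin, and with the dead-cell dye 7-AAD. Whether CD73 staining was positive or negative in each sorted sinus is not stated. The labels call the samples biological replicates without tying them to animals, so the spread within a sinus may be partly technical. Cells went into SuperAmp lysis buffer, and Cy3-labelled material of each sample was read on its own 1-colour Agilent array. The other 10 samples, 5 from each sinus, came from laser-capture microdissection (LCM) of 50 cells each, and serve here for comparison only. Every level below is a log2 signal over the 75th percentile of its own array, every difference is medullary minus subcapsular on that log2 scale, and ± after a difference is the standard error (SE) from limma, with n = 2 arrays per sinus.

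Lymph enters a node through the subcapsular sinus, whose endothelium lines the capsule and carries the atypical chemokine receptor ACKR4, and leaves it through the medullary sinuses, whose endothelium carries scavenger and lectin receptors such as MARCO and MRC1. Both share the lymphatic identity genes, among them the transcription factor Prox1 and the membrane glycoprotein podoplanin (Pdpn). CD73, encoded by Nt5e, makes extracellular adenosine from AMP.

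Of all probes, the share called well above background was 77.8% and 66.3% on the subcapsular arrays and 79.0% and 69.0% on the medullary arrays, a difference of 1.93 points (exact two-sided permutation p = 0.667, where 2 against 2 cannot go below 0.33). No spot was saturated. The 75th percentile of intensity was 469 and 422 on the subcapsular arrays and 238 and 233 on the medullary arrays, so that an equal intensity gave a level 0.92 higher on the medullary arrays. What part this scaling had in the differences of dim genes was not tested. All 4 arrays lay on 1 slide and were scanned together, with both subcapsular arrays in its first row and both medullary arrays in its second, so sinus and slide row cannot be told apart. Across the 27622 genes tested, the correlation of levels was 0.86 between the subcapsular arrays, 0.74 between the medullary arrays and 0.49 to 0.59 between sinuses. Against the mean of the LCM samples of either sinus it was 0.80 to 0.85 for the subcapsular and 0.63 to 0.70 for the medullary arrays. These correlations are across genes, which are not independent replicates.

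The sorted sinuses differed widely, but no single gene passed limma at an adjusted p under 0.05. In the medullary samples hnRNP, antigen presentation and immediate early genes lay lower. Olfactory, vomeronasal and taste receptor genes lay higher there, as did dim genes in general. A trended, robust variance model called 854 higher (3.09%) and 908 lower (3.29%). The smallest adjusted p was 0.0665, shared by 538 genes, and 9173 genes had an unadjusted p under 0.05. The median absolute difference between sinuses was 1.85, against a median absolute gap between replicates of 0.79 for the subcapsular and 0.99 for the medullary arrays. Both medullary values lay above both subcapsular values for 12239 genes (44.3% of those tested) and below both for 7112 (25.7%). Such genes are called apart here, and these 2 percentages are the background for each count of apart genes that follows. Over all genes tested the median difference was 0.83, and it was 0.69 with normexp background correction, 0.52 with quantile normalization and 0.43 in the deposited log2 table. A difference is therefore also read against that median. Since each sample is a pool of cells, fewer cells of a type and less RNA per cell cannot be told apart in any of these values.

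Genes known only by a probe, clone, accession, LOC, Gm or Rik identifier were left out of the rankings that follow. Among apart genes well above background on all 4 arrays with 1 sign under 4 processings, these were 4971 of 8883 higher and 1503 of 4588 lower ones. Of the rest, the 15 ranked highest by their smallest difference under the 4 processings included genes known from neurons, melanocytes and photoreceptors. Kcns1, which encodes a modulatory potassium channel subunit of neurons, was at -3.07 and -3.64 on the subcapsular and at 2.99 and 4.74 on the medullary arrays, a difference of 7.22 ± 0.86 (limma adjusted p = 0.0665). Mamld1, a transcriptional coactivator gene, was at -4.82 and -4.12 against 2.31 and 3.97 (7.61 ± 0.85). Hif3a, a hypoxia-inducible factor subunit, was at -3.88 and -4.93 against 2.57 and 3.57 (7.47 ± 0.76). In all 3 genes the medullary values lay far above the subcapsular ones, and the gap between sinuses was several times the gap within either. Mlana, a melanocyte antigen gene, was at -1.88 and -1.77 against 3.49 and 4.02 (5.58 ± 0.59). Kiss1, which encodes the neuropeptide kisspeptin, was at -2.79 and -2.35 against 2.42 and 2.75 (5.16 ± 0.59). Grk1, the rhodopsin kinase gene of photoreceptors, was at -2.36 and -2.85 against 1.68 and 3.49 (5.19 ± 0.86). That the sinuses are apart in all of these genes was a condition of the choice. Nkx2-6, Cnksr1, Zfr2, Lrrc25, Hecw2, Cabp4, Rasgef1a, Gas2l3 and Smok2b made up the rest, with differences from 4.96 to 5.98. Zfr2, Cabp4, Hecw2 and Rasgef1a had wide medullary spreads, as for Zfr2 at -0.56 and 4.34. A second probe of Gas2l3 pointed the other way. Of the 15 genes, 12 passed when all 14 arrays shared 1 fit, where 8.19% of genes passed as higher. They were picked for large differences on the same 4 arrays, and the fit changes only the variance estimate, so this is no separate support.

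The 15 genes ranked lowest in the same way were led by Pecam1 and by genes of RNA handling and protein turnover. Pecam1 encodes CD31, the endothelial adhesion molecule, and its probe lies at chr11:106540864-106540923 (mm9). It was at 3.93 and 5.23 on the subcapsular and -3.32 and -3.76 on the medullary arrays, a difference of -8.12 ± 0.74 (limma adjusted p = 0.0665). Arglu1, a splicing-associated gene, was at 3.97 and 4.43 against -3.62 and -4.13 (-8.07 ± 0.60). Both were bright in each subcapsular sample and dim but still above background in each medullary one. Lsm8, part of the U6 snRNA-binding ring, was at 4.70 and 4.95 against -1.33 and -3.75 (-7.37 ± 1.02). Psmb1, a core proteasome subunit gene, was at 4.56 and 4.34 against -2.10 and -3.64 (-7.31 ± 0.78). Hnrnpab, an RNA-binding protein gene, was at 6.07 and 6.13 against 2.34 and -3.84 (-6.85 ± 2.26). The subcapsular values of these 3 genes lay close together, whereas Hnrnpab differed widely between the medullary samples. Ddx5, an RNA helicase gene, differed by -6.26 ± 1.34, and Rab7, a small GTPase gene of late endosomes, by -7.06 ± 0.85. Neu1, a lysosomal sialidase gene, differed by -7.10 ± 0.63, and Mbd2, a methyl-CpG-binding protein gene, by -6.48 ± 0.78. Cxxc1, which encodes a protein that binds unmethylated CG, was at 3.31 and 4.66 against -2.20 and -3.94. Abracl, Neurl3, Ccpg1, Denr and Nfx1 lay between -7.04 and -6.34. A second probe of Nfx1 pointed the other way. In the fit over all 14 arrays all 15 passed, where 5.15% of genes passed as lower. These too were picked on the same 4 arrays, so their passing is no separate support.

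Some genes were above background in 1 sinus only, 1196 of them on both medullary and neither subcapsular array and 1069 the other way round. For these a fold is a lower bound, taken against the lowest signal called well above background on each dim array, or the gene's own signal if brighter. Tdrd9, a helicase gene of the germ line, was at 1.84 and 2.21 on the medullary arrays and not well above background on the subcapsular ones, which makes it at least 160-fold higher (limma adjusted p = 0.0665). Cx3cr1, the fractalkine receptor gene of mononuclear phagocytes, was at -0.02 and 2.71 and at least 90.9-fold higher. The vomeronasal receptor gene Vmn1r174, at -0.24 and 2.47, and the olfactory receptor gene Olfr152, at -1.03 and 2.53, were at least 85.2-fold and 66.1-fold higher. None of these 4 was well above background in either subcapsular sample. Prr15, Podxl2, Stk32b, Mei4 and Grik2 had bounds from 63.0-fold to 103-fold. Olfr1391, at -3.12 and 4.19, had a bound of 57.0-fold that was 4.53-fold without medullary replicate 7 and 717-fold without replicate 6. Among the other higher genes that bound ran from 19.2-fold to 229.7-fold without medullary replicate 7 and from 33.7-fold to 234-fold without replicate 6. Tdrd9 and Podxl2 moved by less than 1.5 times, and the rest by more. In the other direction Crisp1, a gene of the epididymis and salivary gland, was at 4.51 and 4.57 on the subcapsular arrays and lower by at least 474-fold in the medullary samples. Lef1, a Wnt pathway transcription factor gene of lymphocytes, was at 3.90 and 4.32 and at least 351-fold lower. Necap2, an endocytosis gene, was at 4.08 and 4.12 and at least 350-fold lower. The subcapsular values lay close together in all 3, with neither medullary array well above background. Snhg5, Pak1ip1, Mocs2, Net1, Npepps, Cul3 and Hip1r had bounds from 187-fold to 328-fold, and that of Cul3 went from 205-fold to 117-fold without subcapsular replicate 7 and 361-fold without replicate 6. Adjusted p-values of these 20 genes ran from 0.0665 to 0.156, so that none passed.

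**Figure D1:**
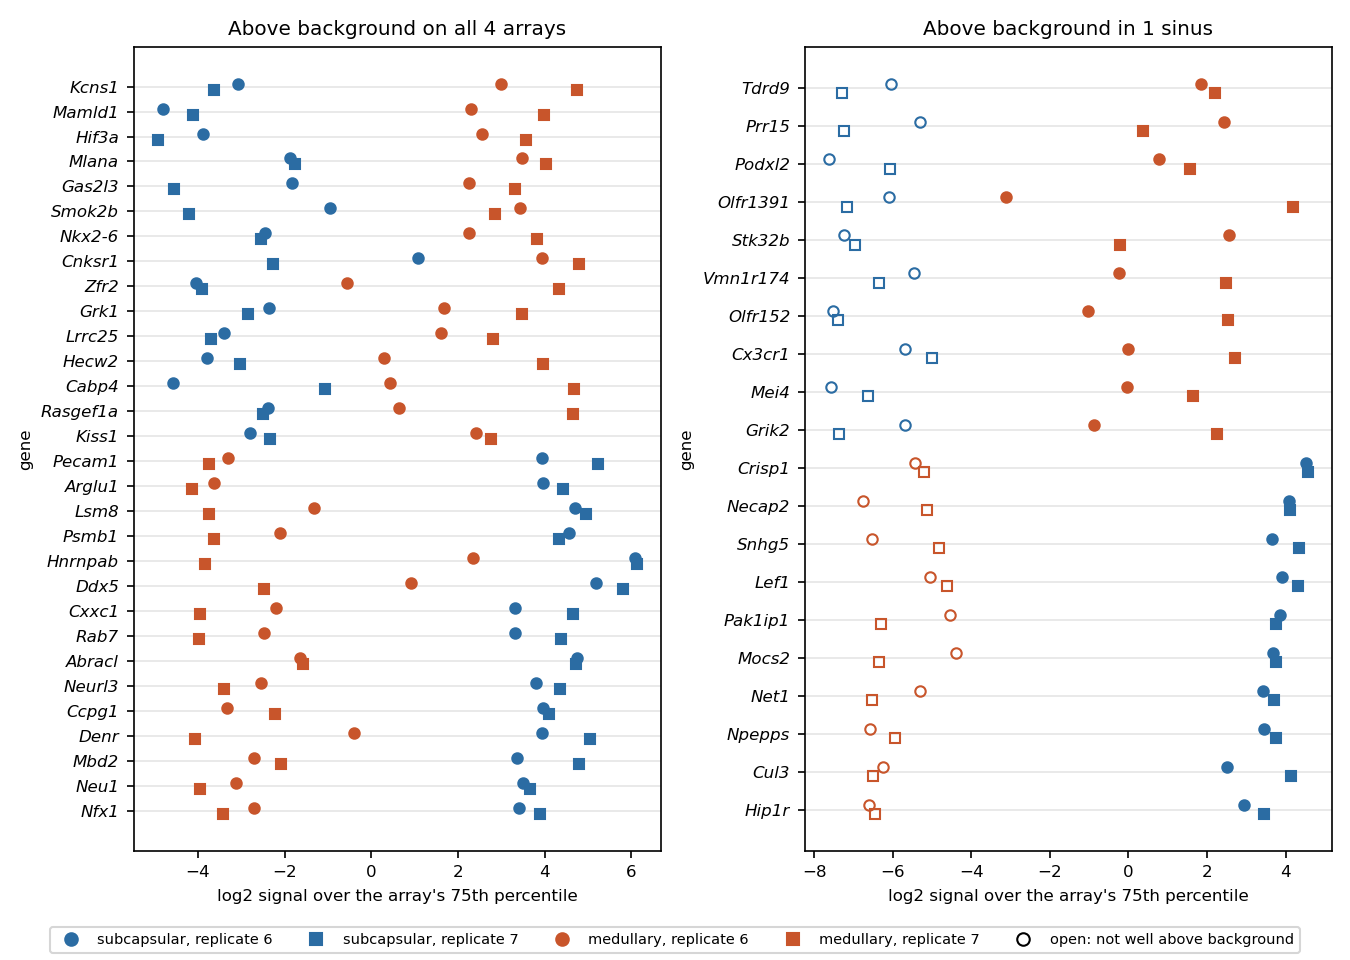
Log2 signal over the array's 75th percentile (x axis) of the genes chosen by rule (y axis), on the left those well above background on all 4 FACS arrays and on the right those above background in 1 sinus only; blue is subcapsular, orange medullary, circles replicate 6, squares replicate 7, and open symbols are not well above background. The sinuses do not overlap in any gene because that was a condition of the choice. The medullary replicates lie further apart than the subcapsular ones in genes such as Hnrnpab, Zfr2 and Olfr1391.

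The labels were then set against defining markers. Nt5e and Pdpn encode proteins stained for the sort, so their levels are a check and not a finding. Nt5e (probe at chr9:88266616-88266675, mm9) was at 1.76 and 1.99 on the subcapsular arrays and not well above background on either medullary array, at least 74.8-fold lower there. Pdpn was at -4.94 and -5.64 on the subcapsular arrays, above background on only 1 of them, and at -1.48 and -0.23 on the medullary arrays (4.43 ± 0.75). In sorted cells the CD73 transcript thus went with the samples labelled subcapsular and the podoplanin transcript with those labelled medullary. In the LCM samples Nt5e lay the other way, at -4.75 ± 2.28 in the subcapsular and -0.51 ± 1.44 in the medullary sinus (SD, n = 5). Prox1, the master regulator of lymphatic identity, was above background on all 4 arrays, at -1.18, -4.41, -1.19 and -0.32, and overlapped between sinuses. Lyve1, the hyaluronan receptor gene, was above background on 1 subcapsular array alone and Flt4, the VEGF-C receptor gene, on 1 medullary array alone, so neither was tested. The list of 11 lymphatic identity genes tested holds the sort antigen gene Pdpn, which is among those apart higher. Of the 11, 5 were higher and 6 lower, with 2 and 5 apart and a median of -1.38. That median turned sign under some settings. It was 0.37 without medullary replicate 6 (12 genes tested), 0.87 without replicate 7 (14 genes) and 0.53 with no filter on dim probes (16 genes). With normexp, on the same 11 genes, it was 0.10. Without a medullary array both the values and the genes tested changed, so their parts cannot be told apart. Relative to the median of all genes the list median was -0.60 to -0.19 in these settings. Mmrn1, a secreted matrix glycoprotein gene, was at -2.52 and -1.37 on the subcapsular arrays and at least 5.28-fold lower on the medullary ones. The receptor tyrosine kinase gene Tek was at -0.29 and 0.02 against -2.68 and -3.06 (-2.74 ± 0.58). The rest of the list was mixed. Sox18, Fgl2, Tie1 and Thy1 differed by -5.27, -3.21, -1.89 and -1.38, and Tie1 was at -6.74 and 2.67 in the medullary samples. Reln, Clca3a1 and Nrp2 differed by 1.98, 1.01 and 0.33.

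Genes that mark the subcapsular lining split. Ackr4, the scavenging receptor gene for CCL19 and CCL21, was at 0.43 and 0.29 on the subcapsular arrays and not well above background on the medullary ones, at least 26.2-fold lower (limma adjusted p = 0.0665). Both of its probes gave this pattern, and in the LCM samples it also lay lower in the medullary sinus (-5.69 ± 1.24 against -0.30 ± 4.66, SD, n = 5). Fabp4, a fatty acid carrier gene, was at 4.32 and 4.41 against 1.08 and 0.35 (-3.65 ± 0.61). Csf1, a macrophage growth factor gene, was at 0.33 and 1.19 against -6.58 and -3.95 (-6.03 ± 1.12), but its 2 other detected probes pointed the other way. Cd36, a lipid scavenger receptor gene, was at 0.86 and -2.33 against -2.42 and -1.68, which overlap. Madcam1, a leukocyte adhesion molecule gene, lay higher in the medullary samples (-2.61 and -2.52 against -1.11 and -1.40, 1.31 ± 0.56) and Cav1, which encodes the caveolar coat protein, was at -2.30 and -0.77 against 0.82 and -0.66. Over the 17 tested genes of this list the median was -0.24, with 4 apart higher and 6 apart lower.

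Medullary markers did not lie together either. The scavenger receptor gene Marco was at 6.03 and 6.27 on the subcapsular and at 5.90 and 6.65 on the medullary arrays, a difference of 0.13 ± 0.62 with overlapping groups. The lectin gene Clec4g was at -2.61 and -7.10, the latter not above background, against 0.81 and -0.78 (4.87 ± 1.78). The mannose receptor gene Mrc1 was at -0.93 and -1.07 against -3.95 and -3.09 (-2.52 ± 0.63), lower in both medullary samples. Cd274, which encodes the checkpoint ligand PD-L1, was at 1.68 and 2.09 against -3.17 and -5.28 (-6.11 ± 0.94). Stab1, a hyaluronan scavenger receptor gene, differed by -0.71 ± 1.32 with overlapping groups. Its relative Stab2 was at -3.14 and -4.78 against -2.78 and -3.09 (1.02 ± 0.81), just apart, and its second probe pointed the other way. The 12 tested genes of the list had a median of 0.33, with 4 apart higher and 3 apart lower. The sort antigen gene Nt5e belongs to this list and is among those apart lower (-8.46), so it bears on the sort and not on the labels. Siglec1, the sialoadhesin gene of sinus macrophages, differed by -3.92 ± 1.29 on its brighter probe (1.48 and 3.95 against -2.30 and -0.11), while its other probe was at -0.62 and 0.68 against 1.73 and 0.43. Endomucin (Emcn) was at -3.22 and -0.97 against 0.52 and -1.64, and Vwf, the von Willebrand factor gene, at 0.82 and -2.01 against -1.43 and 0.77. Both overlapped on these probes. A second, dimmer probe of Vwf was at -1.55 and -1.24 against -0.16 and -0.82, apart higher.

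**Figure D2:**
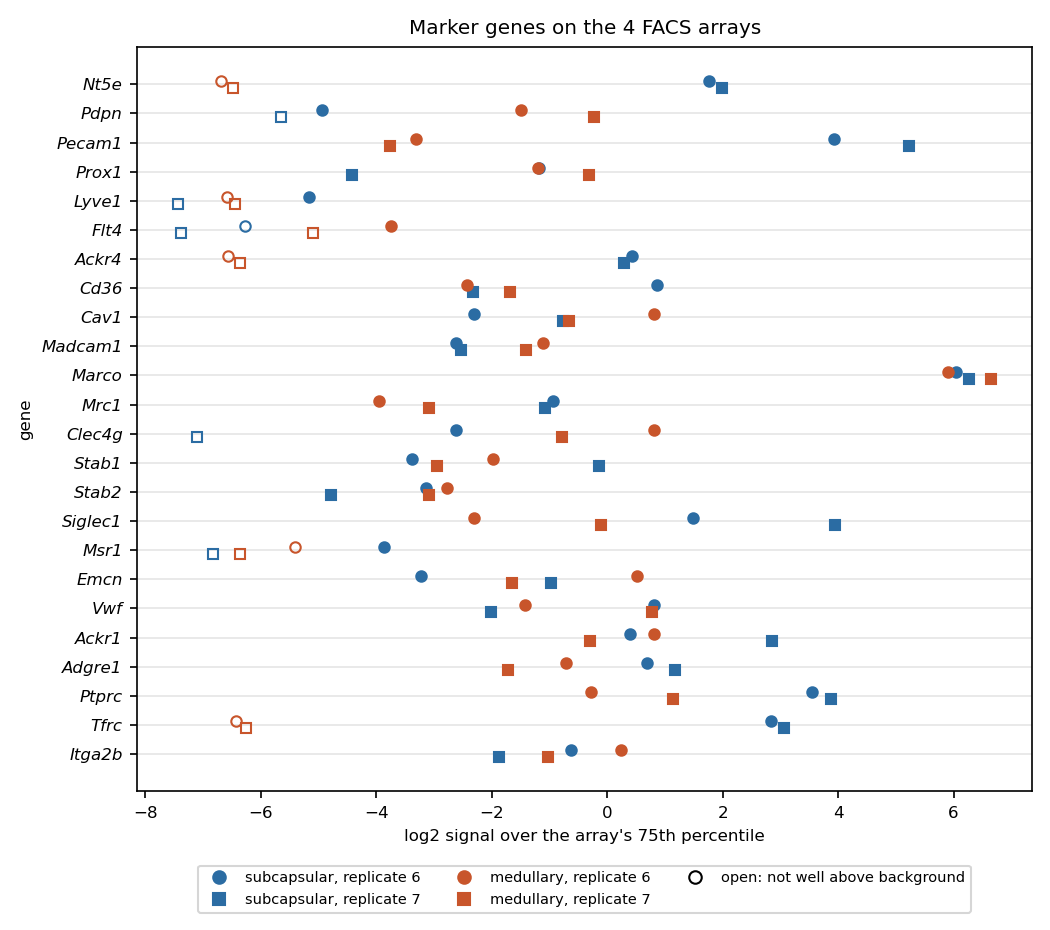
Log2 signal over the array's 75th percentile (x axis) of the fixed marker genes (y axis) on the 4 FACS arrays; blue is subcapsular, orange medullary, circles replicate 6, squares replicate 7, and open symbols are not well above background. Nt5e, Pecam1, Ackr4 and Tfrc stand far apart between the sinuses, whereas Marco, Vwf, Stab1 and Cd36 overlap on the probe drawn.

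Transcripts of cells that the gate was meant to remove were present in both sinuses. Although the cocktail contained B220, 16 B cell genes were above background on each subcapsular array and 16 and 15 on the medullary arrays, with a mean level of 3.75 and 4.32 against 1.50 and 1.57 over the 16 tested. Of these 16, 12 were apart lower and 1 apart higher (median -1.82). Blk, a B cell kinase gene, was at 2.29 and 3.02 against -3.32 and -4.23 (-6.43 ± 0.69), and Ms4a1, which encodes CD20, differed by -3.58 ± 0.75. Plasma cell genes had a median of -2.19 with 6 of 9 apart lower, and Jchain, the immunoglobulin joining chain gene, was at 3.44 and 3.92 against 0.28 and -0.06. T cell genes had a median of -1.47 with 10 of 19 apart lower and 3 apart higher. Ptprc, which encodes the pan-leukocyte antigen CD45, was at 3.56 and 3.88 against -0.28 and 1.13. Salivary gland genes were also bright, at a mean level of 2.35 and 2.28 against 0.27 and 1.84 over the 20 tested. Car6, a secreted carbonic anhydrase gene of that gland, was at 4.84 and 4.65 against 0.15 and -0.27 (-4.80 ± 0.58). In the LCM samples, whose labels name no cervical nodes, Car6 was at -4.53 ± 1.19 and -4.43 ± 2.12 (SD, n = 5). The part that such RNA had in the differences was not tested.

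Functional lists that lay lowest were immediate early and dissociation genes, antigen presentation and chemokines. Of 35 immediate early and dissociation genes, which respond within minutes to stress and enzymatic digestion, 33 were lower and 30 apart lower, with a median of -2.26. The mRNA decay factor gene Zfp36 was at 1.88 and 1.36 against -2.84 and -3.86 (-4.96 ± 0.69), and Egr2, a zinc finger transcription factor gene, at 0.29 and 0.05 against -3.34 and -3.48 (-3.58 ± 0.56). In the LCM samples, which were not digested, the same list had a median sinus difference of 0.83. Of 29 antigen presentation genes, 26 were lower and 22 apart lower (median -1.86). Tap1, a peptide transporter gene of the class I pathway, was at 2.47 and 3.00 and lower by at least 136-fold on the medullary arrays. Psmb9, an immunoproteasome subunit gene, was at 5.43 and 5.38 against 0.77 and -0.18, and B2m, the class I light chain gene, at 5.22 and 5.63 against 1.42 and 1.49. All 3 were lower on both medullary arrays. Of 28 tested genes for chemokines and their receptors, 13 were apart lower and 5 apart higher (median -1.82). Cxcl1, a neutrophil attractant gene, was at 1.26 and 2.75 against -2.09 and -1.94 (-4.02 ± 0.77). Ackr1, a chemokine receptor gene of venules, was at 0.40 and 2.86 against 0.81 and -0.30, which overlap.

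Housekeeping genes lay on the same side. Of 24 genes of translation, respiration and the cytoskeleton, 23 were lower and 17 apart lower (median -1.33, or -2.16 from the median of all genes), so a list near that value lay no lower than these. Ywhaz, a signalling adaptor gene often used for scaling, was at 3.95 and 3.91 against 1.18 and 1.53, and Tbp, the TATA-binding protein gene, at -1.54 and -0.37 against -3.67 and -3.54. Lower medians were also found for iron handling (-1.69), cell division (-1.60), blood endothelium and high endothelial venules (-1.38), the adenosine pathway (-1.17), extracellular matrix (-1.09), interferon-stimulated genes (-0.94) and lipid handling (-0.94). In the iron list Tfrc, the transferrin receptor gene, was at 2.83 and 3.06 and at least 157-fold lower. In the adenosine list, which holds Nt5e, the adenosine deaminase gene Ada was at 0.03 and 1.85 and at least 39.0-fold lower, and Pnp, the gene for the next enzyme of purine breakdown, was at 2.01 and 2.46 against -4.15 and -3.94 (-6.28 ± 0.58). A second detected probe of Pnp pointed the other way. Among growth factors Vegfa was at 1.73 and 0.93 and at least 51.1-fold lower, although its list of VEGF, angiopoietin and Tie genes had a median of 0.31. Icam1, an endothelial adhesion molecule gene, was at 0.04 and 3.22 and at least 63.0-fold lower, in a leukocyte adhesion list with a median of 0.47. Macrophage genes had a mean level of 0.80 and -0.96 against -0.99 and -0.61 and a median difference of -0.19. The medians were -0.72 for fibroblastic reticular cells, -0.66 for neutrophils and mast cells, -0.52 for scavenger and lectin receptors, 0.02 for platelets, 0.52 for NK cells, 0.77 for Notch, BMP and TGF-beta signalling and 0.88 for erythroid cells. Dendritic cell genes were at -0.13, junction and valve genes at 0.29 (14 of 24 higher), and sphingosine 1-phosphate genes at 0.35. Besides erythroid cells, lists above the median of all genes were keratinocytes (2.04, 8 of 11 apart higher), adipocytes (1.39) and smooth muscle cells and pericytes (0.97). Under 15 other settings the medians of 19 of the 34 lists turned sign at least once. Among them were both sinus lists, fibroblastic reticular cells, the adenosine pathway, extracellular matrix and lipid handling. The medians of immediate early genes (-2.97 to -1.82), antigen presentation (-2.09 to -1.58) and chemokines (-2.15 to -0.84) kept their sign. So did those of B cells (-2.22 to -1.47), housekeeping genes (-1.58 to -1.04) and keratinocytes (1.33 to 2.18). The trended, robust variance model and a block for replicate number, both among the 15, leave every median as it was. The fit over all 14 arrays can change one only through which genes are tested. Read against the median of all genes, 6 of the 34 lists changed side at least once, extracellular matrix among them. Both sinus lists, fibroblastic reticular cells, the adenosine pathway and lipid handling stayed below it. In the keratinocyte list Lor, the loricrin gene, was at -3.26 and -4.67 against 0.07 and -1.20.

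Gene families, picked after values had been seen, showed the split most plainly. Olfactory receptors are sensory genes that endothelium is not known for, and of the 1103 on the array, 610 were tested, 257 of them because they were above background on both arrays of the medullary sinus alone and 24 of the subcapsular sinus alone. Since that filter favours the brighter sinus, all 1103 were also taken without it: 1030 were higher and 784 (71.1%) apart higher, 8 apart lower, with a median of 2.00, against 45.1% apart higher and a median of 0.96 over all genes measured. The 329 above background on all 4 arrays had a median of 1.83, with 258 apart higher and 0 apart lower, and the 610 tested one of 2.33. Olfactory receptors were dim, at a mean level of -4.80 and -5.51 on the subcapsular arrays, and dim genes in general lay high. Of 5 equal groups of tested genes ordered by LCM level, the dimmest had a median of 1.93. In that group 56.3% were apart higher, against 80.5% of the 610. What part brightness had in the family medians was not tested. The share of the 1103 called above background was 56.2% and 36.7% on the subcapsular and 75.6% and 59.5% on the medullary arrays, so the groups did not overlap, while over all genes it was 81.4% and 71.4% against 82.6% and 73.9%. Without the filter vomeronasal receptors had a median of 2.18 (185 of 262 apart higher), taste receptors 2.35 (27 of 38), keratin-associated proteins 1.94 (38 of 53) and beta-defensins 1.90 (30 of 43). At the other end all 20 hnRNP genes, which encode the proteins that package nascent RNA, were lower, 17 of them apart, with a median of -3.57. Of these, 4 were tested through the subcapsular sinus alone. The 16 above background on all 4 arrays had a median of -2.51, with 13 apart lower. Over all genes above background on all 4 arrays, 23.3% were apart lower. Hnrnpc was at 4.59 and 4.91 against -1.54 and -0.36 (-5.70 ± 0.70), Hnrnpu at 5.25 and 5.32 against 1.60 and 1.72 (-3.62 ± 0.56) and Hnrnpa3 at 6.41 and 6.48 against 5.88 and 5.71 (-0.65 ± 0.56). So the size varied within the family from strong to small, with every member lower. Proteasome subunits had a median of -2.42 (24 of 38 apart lower), NADH dehydrogenase subunits -1.77 (21 of 37), mitochondrial ribosomal proteins -1.70 (37 of 74) and cytosolic ribosomal proteins -0.77 (68 of 115). Of those tested, 6, 5, 19 and 3 passed the filter through the subcapsular sinus alone. Their members above background on all 4 arrays had medians of -2.16 (19 of 31 apart lower), -1.48 (16 of 32), -1.09 (24 of 52) and -0.77 (66 of 108). Zinc finger genes of the Zfp series, at 0.56, lay near the median of all genes. Collagens were at 1.60 (17 of 30 apart higher), or 1.39 without the filter (23 of 44). Over the tested members, each family median kept its sign under normexp, quantile normalization, the deposited table and another percentile, but normexp made many smaller. With it the olfactory median was 1.26 (2.33 before), the vomeronasal 1.48 (2.52), the taste receptor 1.31 (2.43), the beta-defensin 1.17 (1.90) and the hnRNP median -2.32. Leaving out any 1 of the 4 arrays left the olfactory median between 2.01 and 2.64 and the hnRNP median between -3.48 and -2.95. The cytosolic ribosomal median lay between -1.11 and -0.30, the latter without medullary replicate 6, and that of mitochondrial ribosomal proteins between -1.69 and -1.10. In the LCM samples the sinus difference had a median of 0.18 for olfactory receptors and -0.87 for hnRNPs. Olfactory receptors were above background there too, 31.6% to 48.1% of them on the subcapsular and 47.1% to 54.6% on the medullary LCM arrays. For all probes these shares were 50.8% to 69.0% and 67.3% to 75.3%.

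**Figure D3:**
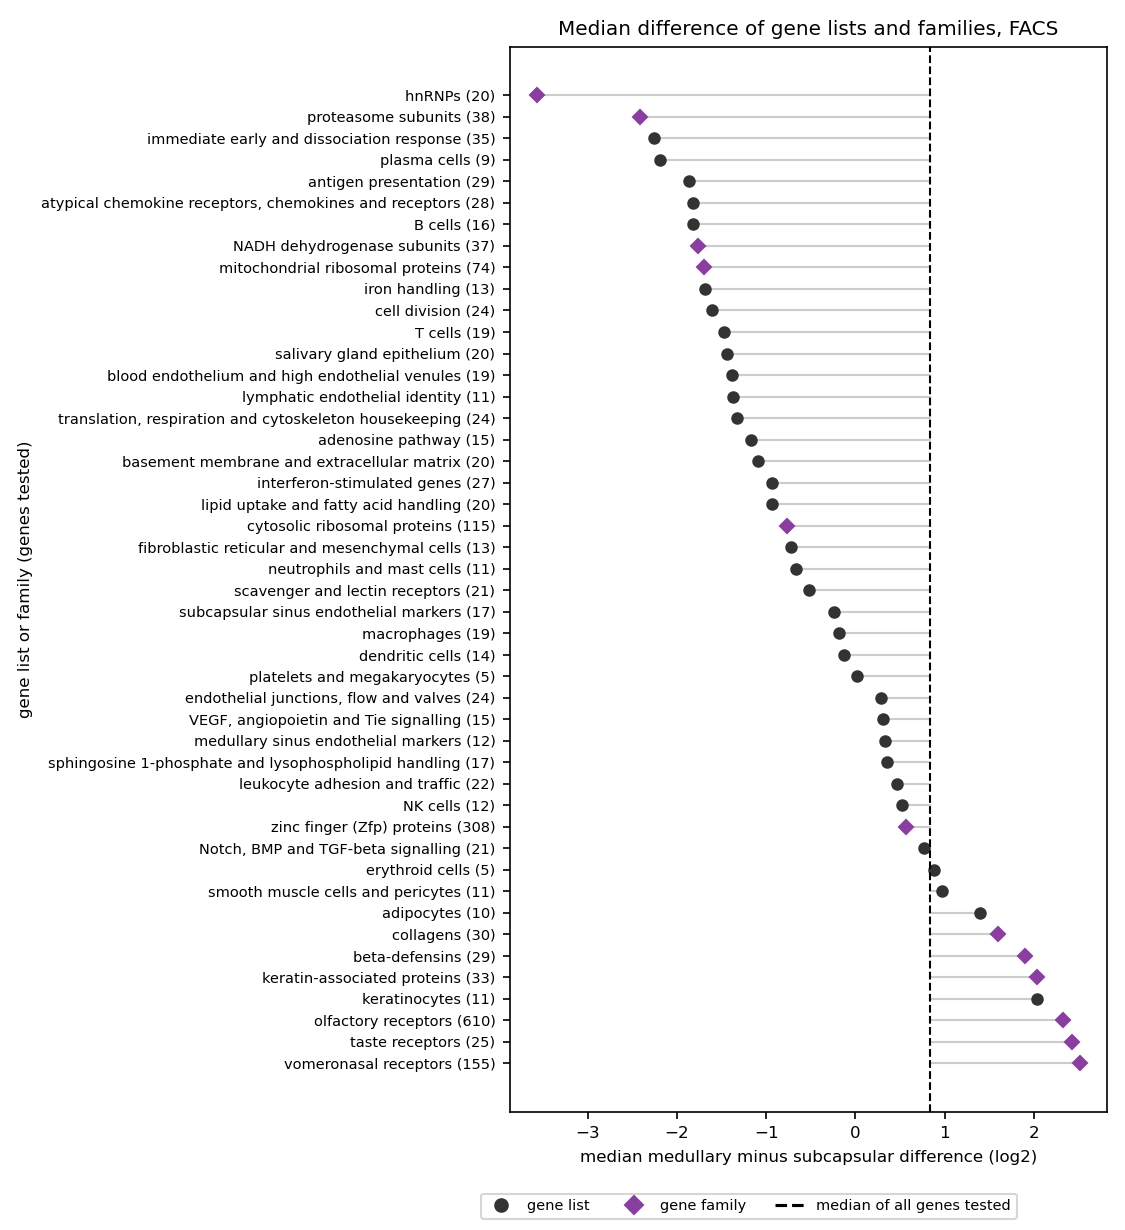
Median medullary minus subcapsular difference in log2 (x axis) of the gene lists (black circles) and gene families (purple diamonds) on the y axis, with the number of genes tested in brackets; the dashed line is the median of all genes tested, 0.83. The hnRNPs (-3.57) and proteasome subunits (-2.42) lie lowest and the olfactory, taste and vomeronasal receptors (2.33, 2.43 and 2.52) highest.

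The sinus difference was also set against 2 features of the genes. Genes were ordered by their mean level on the 10 LCM arrays, which share no sample with the sorted cells, and put in 5 groups of equal size. From the dimmest to the brightest group the median difference in sorted cells was 1.93, 1.31, 0.86, 0.19 and -0.56. The medullary arrays correlated less with the LCM means than the subcapsular ones (0.63 to 0.70 against 0.80 to 0.85). That gap by itself favours such an order, so the order is no separate support. In the dimmest group the median subcapsular level was -4.39 and the medullary one -2.65, whereas in the brightest they were 3.06 and 2.60. Grouping the same genes by the number of LCM arrays with signal above background gave no steady order. The medians were 2.73, 1.64, 0.36 and -0.06 up to 9 arrays, but 0.85 for the 14498 genes above background on all 10. The second feature was the number of CG dinucleotides in the 250 bases before the transcription start, a dinucleotide that is dense in the promoters of broadly active genes and sparse in those of many tissue-restricted ones. RefSeq promoters (GRCm38.p6) were matched by symbol for 12822 of 15989 tested protein-coding genes (80.2%). With at most 2 CG the median difference was 1.88 (66.7% apart higher, 9.63% apart lower), with 3 to 5 it was 1.26, with 6 to 10 0.45, with 11 to 15 -0.67, with 16 to 20 -0.92, with 21 to 30 -1.19, and above 30 CG -1.26 (22.1% and 47.3%). In the LCM samples the same groups ran only from 0.22 to -0.13. The order also held within each of 3 groups by LCM level, among genes above background on all 10 LCM arrays. With at most 5, 6 to 20 and above 20 CG the medians were 1.75, 1.14 and 1.01 in the dimmest group. They were 1.37, -0.25 and -1.10 in the middle group and 0.40, -1.24 and -1.69 in the brightest. Brightness was not fully matched within a group. In the brightest the median subcapsular level rose with CG from 2.68 to 3.23, and the LCM sinus difference went from -0.41 to -0.75. Without each of the 4 arrays in turn, the median lay between 1.60 and 2.18 at no more than 2 CG and between -1.24 and -0.99 above 20 CG. Genes share arrays, brightness and base composition, so these are descriptions with no test. Long noncoding RNA genes had a median of 1.73 and protein-coding genes of 0.21.

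The promoters of 5 named genes show the 2 ends and an exception, and were picked for this after values had been seen. They are given 5′ to 3′ on the strand of the gene, ending just before the start, in RefSeq's GRCm38.p6 sequence, with each CG in capitals. The search was for the letters CG, which read the same on both strands, and 92.1% of the 32851 promoters in the table hold at least 1, with a median of 6. Lsm8 (chr6:18848385-18848634, plus strand) holds 21 CG and Hnrnpab (chr11:51606882-51607131, minus strand) 23, and both genes lay lower in the medullary samples. Vmn1r174 (chr7:23753661-23753910, plus strand) and Olfr152 (chr2:87782286-87782535, plus strand) hold 1 each, and both lay higher. Kcns1 (chr2:164171114-164171363, minus strand) holds 17 CG and lay higher, so single genes did not follow the order of the medians.
Lsm8: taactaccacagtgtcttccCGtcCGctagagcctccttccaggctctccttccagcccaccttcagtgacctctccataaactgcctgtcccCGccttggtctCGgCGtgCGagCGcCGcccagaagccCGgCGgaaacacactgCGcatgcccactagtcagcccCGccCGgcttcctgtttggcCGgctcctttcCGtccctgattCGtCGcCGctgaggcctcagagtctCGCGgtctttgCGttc
Hnrnpab: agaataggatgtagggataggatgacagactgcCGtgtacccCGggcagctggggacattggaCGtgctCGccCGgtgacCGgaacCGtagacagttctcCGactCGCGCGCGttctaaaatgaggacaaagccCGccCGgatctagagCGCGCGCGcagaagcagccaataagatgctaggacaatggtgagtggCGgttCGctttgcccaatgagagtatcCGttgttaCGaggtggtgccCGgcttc
Vmn1r174: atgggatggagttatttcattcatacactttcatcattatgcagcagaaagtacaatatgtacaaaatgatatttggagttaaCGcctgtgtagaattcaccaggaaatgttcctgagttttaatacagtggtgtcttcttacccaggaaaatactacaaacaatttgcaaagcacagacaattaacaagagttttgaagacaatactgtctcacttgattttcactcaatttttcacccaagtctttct
Olfr152: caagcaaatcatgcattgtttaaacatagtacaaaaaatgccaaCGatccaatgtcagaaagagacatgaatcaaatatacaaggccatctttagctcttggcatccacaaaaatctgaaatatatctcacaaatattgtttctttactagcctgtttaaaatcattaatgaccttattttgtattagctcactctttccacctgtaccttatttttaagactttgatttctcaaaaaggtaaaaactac
Kcns1: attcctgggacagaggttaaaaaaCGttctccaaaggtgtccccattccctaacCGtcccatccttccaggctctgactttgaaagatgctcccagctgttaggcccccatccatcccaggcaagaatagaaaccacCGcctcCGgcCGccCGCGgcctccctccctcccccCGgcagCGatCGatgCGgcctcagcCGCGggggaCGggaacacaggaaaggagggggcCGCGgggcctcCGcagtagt
Of all promoters in the table, 29.0% hold at most 2 CG, as those of Vmn1r174 and Olfr152 do, and 16.3% more than 20, as those of Lsm8 and Hnrnpab do. Among the genes from which the named ones were drawn, those above background on all 4 arrays had a median of 7 CG where the medullary values were higher and 17 where they were lower. For those above background in 1 sinus only, the medians were 4 and 16. The named genes themselves differed less, with 14 against 20.25 on both sides and 10 against 17 in 1 sinus only. The match says only that these letters are in the window.

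**Figure D4:**
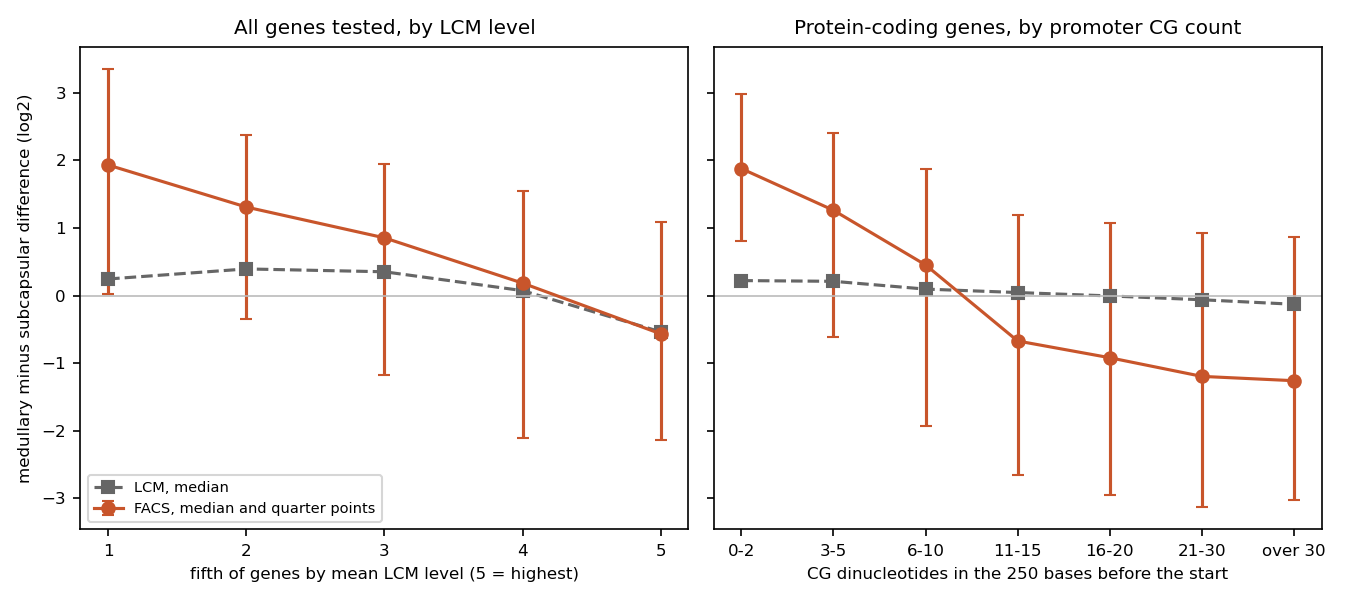
Medullary minus subcapsular difference in log2 (y axis) for all genes tested grouped by mean level on the LCM arrays (left, x axis from dimmest to brightest) and for protein-coding genes grouped by the number of CG in the 250 bases before the start (right); orange points and bars are the median and the 25th and 75th percentiles over genes in sorted cells, grey squares the median in LCM samples. The medians in sorted cells go from 1.93 to -0.56 on the left and from 1.88 to -1.26 on the right, while those in LCM stay between -0.54 and 0.40.

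An interaction fitted to all 14 arrays tested if sorted and laser-captured cells had unequal sinus differences. It passed for 189 genes that were more positive in sorted cells (0.638%) and 219 that were more negative (0.739%) of 29638. Pecam1 was at 4.15 ± 2.12 in subcapsular and 4.82 ± 0.52 in medullary LCM samples (SD, n = 5), so its low level was found in the sorted medullary samples and not in the dissected ones (interaction -8.80 ± 1.41, limma adjusted p = 0.013). Cells for LCM had been chosen by CD31 staining. Ackr1 lay 5.47 higher in the medullary sinus in LCM and 1.38 lower in sorted cells (-6.85 ± 1.18, limma adjusted p = 0.0187). Gadd45b, a stress response gene, differed by 3.36 in LCM and by -4.50 in sorted cells (-7.87 ± 1.57, limma adjusted p = 0.0329). Grk1 differed by -0.19 in LCM and by 5.19 in sorted cells (5.38 ± 1.06, limma adjusted p = 0.0312). Cpxm2, a carboxypeptidase-like gene, was at -3.43 and -3.59 against 1.25 and 2.12 in sorted cells and differed by -0.22 in LCM (5.41 ± 0.80, limma adjusted p = 0.00852). For Siglec1, Ackr4, Mrc1 and Madcam1 the interaction did not pass (limma adjusted p 0.787 to 0.986), and for Mrc1 the differences were -2.52 in sorted cells and -2.46 in LCM. Across 27622 genes the sinus differences of the 2 methods had a correlation of 0.13, and 55.1% of genes lay on the same side of both medians. Of 34 genes called between sinuses in LCM in this fit, 29 were tested in sorted cells, where 7 of the 26 higher ones lay above the median of all genes and 3 of the 3 lower ones below it. Slide and scan were uneven over the LCM arrays. All 5 subcapsular LCM arrays lay on 1 slide with medullary LCM replicates 1 to 3. Medullary LCM replicates 4 and 5 lay on the slide of the sorted arrays, which was scanned apart. The LCM sinus difference, and with it the interaction, is thus partly mixed with slide and scan. With the slide as a block the interaction passed for 44 genes, 10 more positive and 34 more negative. The number of interaction calls depended strongly on single arrays, from 10 without subcapsular FACS replicate 7 to 1288 without medullary FACS replicate 6, with 104 without subcapsular replicate 6 and 1119 without medullary replicate 7.

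Probes of the same gene gave a measure of how far a single probe can be trusted. Among 8179 genes with at least 2 detected probes, 69.4% had all probes on the same side of 0, and the median range between probes of a gene was 1.93, close to the median absolute difference between sinuses.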

How the data were processed

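Each sample was hybridised to 1 Agilent 1-colour array. The authors deposited scanner text files, which hold per-spot intensity values as Agilent Feature Extraction 10.7.3.1 processed them, per the file headers. A second deposited file holds log2 values, with normalization and centring not given in the sources used here. Its column medians were all 5.43, and it correlated with the values computed here at 0.992 or above on the sorted arrays.

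Control spots and 481 outlier spots were left out. For each of 55681 probes the log2 processed signal minus the array's 75th percentile was taken. RefSeq names were found through the accession for 27235 probes, the symbol for 3581 and an older symbol for 565, while 24300 stayed under the file's own name. Each gene was read from the probe brightest on average across all 14 arrays, and was tested when well above background on both arrays of at least 1 sinus, which held for 27622 of 34741 genes. The test was limma 3.58.1 under R 4.3.3 with eBayes and Benjamini-Hochberg adjustment, called at an adjusted p under 0.05. The interaction used all 14 arrays with array weights by isolation. The fits were also run on simulated data with independent errors for each gene. Such data hold no shift by scaling or slide row, so that run cannot speak to either.

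Named genes were those above background on all 4 arrays, with sinuses that do not overlap and 1 sign under 4 processings, ranked by the smallest difference (15 per direction), those above background in 1 sinus only (10 per direction), 6 per direction for the interaction, fixed markers, and up to 4 members per list by lowest p. Tbp, Sox18, Tie1, Thy1, Reln, Clca3a1, Nrp2, Hnrnpc, Hnrnpu and Hnrnpa3 fall outside this rule or were chosen after their values were seen. Genes with only a probe, clone, accession, LOC, Gm or Rik identifier were left out of the ranked groups. The members and the 34 lists were chosen with earlier results of these data known. Probe positions are those in the scanner files (mm9), and no annotation of that build was used here, so exon and UTR are not stated. The number of arrays limits the precision.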

Additional observations from a re-analysis of the deposited data

Results flagged for a closer look

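The genes below passed the limma interaction of sinus and isolation over all 14 arrays (adjusted p from 0.0016 to 0.0495). That fit had no slide block, and slide is partly mixed with the LCM sinus difference. Values are the interaction in log2. For genes with a group not above background they are fitted values and no bounds.

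More positive in sorted cells were Olfr152 (9.90), Podxl2 (7.83), Vgll1 (6.85), HOTAIR (5.70), Cpxm2 (5.41), Olfr56 (5.40), Grk1 (5.38) and Smim11 (4.76). Of these, Olfr152 is an olfactory receptor gene and HOTAIR a long noncoding RNA of the HoxC cluster. A second probe of Smim11 pointed the other way.

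More negative among genes known from endothelium were Nt5e (-12.70), which encodes a sort antigen, Pecam1 (-8.80), Angpt2 (-8.24), a Tie2 ligand gene, Ackr1 (-6.85), Nfatc1 (-6.02) and Plvap (-5.34), the gene of the fenestral diaphragm protein. In Angpt2 the sinus difference was 6.30 in LCM and -1.94 in sorted cells. More negative among immune and interferon genes were Gbp4 (-9.75), Ctla2a (-7.41), Cd274 (-6.94), Gbp3 (-6.46), Tcf7 (-5.39) and Psmb9 (-4.36). In the purine pathway these were Ada (-10.49) and Pnp (-5.44), whose second probe pointed the other way.

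More negative among genes of stress response and RNA or protein handling were Gadd45b (-7.87), Zfp36 (-4.93), Cul3 (-8.35), Cxxc1 (-7.38), Lsm8 (-5.73), Psmb1 (-5.78), Ddx5 (-5.38) and Rab7 (-6.01). The others were Net1 (-11.09), Snhg5 (-9.29), Necap2 (-8.76), Smpdl3a (-7.69), Ptcd2 (-7.62), Neurl3 (-6.50), Nfx1 (-5.87), Ccpg1 (-5.72) and Abracl (-5.51).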

How the results depend on the processing

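With the sorted arrays alone, limma called 0 genes in the main setting and 0 to 0 without each array in turn, but 1762 (854 higher, 908 lower, 3.09% and 3.29%) with a trended, robust variance model and 3953 (2427 and 1526) when all 14 arrays shared 1 fit. With the replicate block it called 0, and same-numbered samples did not deviate together (r = -0.01 across genes), so the numbers pair nothing here. The median difference over all genes was 0.47 to 1.06 without each array. The filter let in more genes in these runs (28324 to 30525), and over the same 27622 genes the range was 0.64 to 0.91. The interaction calls, 408 in the main setting, were 835 with normexp (512 more positive, 323 more negative), 1240 with quantile normalization (620 and 620), 1135 in the deposited table (514 and 621), 256 with no filter (114 and 142), 106 without array weights (37 and 69) and 44 with the slide as a block. They ran from 10 to 1288 without each array. A percentile over detected probes gave a split of 111 and 332, and a filter on every array one of 259 and 160. Of the single-gene interaction values, 96 kept direction and call under other settings and 31 the direction alone, and without 1 array these were 25 and 23. The correlation between methods was 0.30 over genes above background on all 14 arrays and -0.0014 in the deposited table, and the share of genes with agreeing probes was 70.9% with normexp and 66.3% in the deposited table, both chosen after seeing the data. Differences turned sign for Marco (-0.0053), Klrk1 (0.21) and Gp1ba (0.11) with normexp, and for Vwf with quantile normalization (-0.15) and in the deposited table (-0.24). They also did so for Stab2 (-0.38), Csf1 (0.75) and Clec1b (2.54) as a mean of probes, and for Stab2 (-1.78) and Bst1 (1.71) on the probe brightest in sorted cells. Without each array in turn the range crossed 0 for Cd36 (-2.91 to 0.28, positive without subcapsular replicate 6), Marco (-0.25 to 0.50, negative without medullary replicate 7), Stab1 (-2.32 to 0.91, positive without subcapsular replicate 7), Vwf (-1.14 to 1.68, negative without replicate 7 of either sinus), Hbb-b2 (-2.31 to 0.52, positive without replicate 6 of either sinus) and Clec1b (-0.66 to 0.39, positive without subcapsular replicate 6 or medullary replicate 7). The cause of these changes was not tested. Of the other single-gene values under other settings, 1772 kept direction and side of the threshold and 171 came to pass it. Relative to all genes, 309 list medians moved by less than the replicate spread under other settings and 65 by more, and without 1 array these were 84 and 52. The 309 include the trended, robust variance model and the replicate block, which cannot move a list median.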
